A study of Homo sapiens with 15 samples.

Results

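Promoter regions of protein-coding genes were followed through 15 ATAC-seq peak lists from RPTEC, an hTERT-immortalised human cell line derived from the proximal tubule of the kidney. Peaks on chromosomes 1 to 22 from all lists overlapping by 1 bp or more were merged, and merged regions with a peak in 2 or more libraries were kept. A region was counted as a promoter when its midpoint lay within 1000 bp of a transcription start of a protein-coding gene in GENCODE v44. This gave 35111 promoters among 285511 regions, and the remaining 250400 are called other regions. Of 19111 protein-coding genes on these chromosomes, 15960 had at least 1 promoter region, and 14139 had one with a peak in every library.

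The groups held 3 libraries each. WT cells were the unedited line. KO1 and KO2 were single-cell clones in which CRISPR/Cas9 with a guide to exon 3 of SETD2 had introduced frameshifts into both alleles. Rescue1 and Rescue2 were single colonies in which full-length, FLAG-tagged SETD2 had been returned to KO cells by lentivirus under blasticidin selection, and by the study's line names both descend from KO2. All lines carried the hTERT transgene. Each knockout or rescue line is 1 clone, so its 3 libraries are not independent clones, and a property of a clone cannot be told apart from an effect of SETD2. WT has no clonal counterpart among these libraries.

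A promoter is the stretch around a transcription start where general factors and RNA polymerase II assemble. Promoters rich in CpG dinucleotides, which serve most housekeeping genes, are usually free of nucleosomes in every tissue, whereas CpG-poor promoters and alternative starts tend to open with cell type. SETD2 places the trimethyl mark on H3K36 behind elongating polymerase, so the mark lies in gene bodies rather than at starts, and its loss has been tied in other systems to transcription from starts inside genes.

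The sequences shown here belong to the canonical promoters of 5 genes whose peaks went with SETD2 in all libraries, 2 with a peak only in the KO clones and 3 without a peak only there. They were read from hg38, are given on the forward strand, cover stretches of at most 200 bases without annotated exons, and carry in capitals any match to the motifs searched below. The MS4A5 stretch, upstream of the start at chr11:60428601-60428800, holds a FOX match. The MS4A7 stretch, at chr11:60378354-60378484 and directly before the start, holds a TATA box match on the strand opposite to the gene. The STXBP2 stretch, downstream of the start at chr19:7637284-7637483, and the HSH2D stretch, upstream at chr19:16143540-16143631, hold no match. HSH2D and ZNF853 were not called as regained under all of the peak settings described below. The ZNF853 stretch, downstream at chr7:6616216-6616415, holds an E-box match.
MS4A5: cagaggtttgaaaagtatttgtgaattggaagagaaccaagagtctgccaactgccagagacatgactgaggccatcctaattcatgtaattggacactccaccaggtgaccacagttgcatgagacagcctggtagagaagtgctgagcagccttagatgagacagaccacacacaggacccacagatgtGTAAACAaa
MS4A7: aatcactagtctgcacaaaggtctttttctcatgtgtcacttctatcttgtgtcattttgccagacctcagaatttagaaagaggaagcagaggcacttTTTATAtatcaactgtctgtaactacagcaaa
STXBP2: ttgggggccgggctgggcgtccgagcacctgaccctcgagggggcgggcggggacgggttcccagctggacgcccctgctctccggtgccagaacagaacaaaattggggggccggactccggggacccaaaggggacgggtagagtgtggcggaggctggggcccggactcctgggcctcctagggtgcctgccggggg
HSH2D: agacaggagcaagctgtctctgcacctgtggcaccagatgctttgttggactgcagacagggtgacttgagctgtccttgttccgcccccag
ZNF853: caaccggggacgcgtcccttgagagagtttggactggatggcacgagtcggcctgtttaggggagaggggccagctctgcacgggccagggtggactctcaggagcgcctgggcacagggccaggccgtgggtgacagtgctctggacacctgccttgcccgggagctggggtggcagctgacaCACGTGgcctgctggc
The MS4A5 and MS4A7 promoters are poor in CpG, with observed/expected ratios of 0 and 0.195 over their central 200 bp, whereas that of STXBP2 has a ratio of 0.768. Peaks over MS4A5, a member of the membrane-spanning 4A family, were called in all 6 KO libraries and in no other.

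Each list was called by MACS2 at a q-value of 0.05 and held between 197527 and 266011 peaks. Read counts were not part of the lists. The study summarises sequencing depth in its supplement, but depth was not used here. A promoter without a peak is a promoter below the calling threshold, not a closed one. Peak height is given as the percentile of its fold enrichment within its own list, where 100 would be the highest peak. The canonical SETD2 promoter at chr3:47163180-47164925 carried a peak in all 15 libraries, with mean percentiles of 69.3 in WT, 77.5 in KO1, 79.3 in KO2, 81.4 in Rescue1 and 79.1 in Rescue2. The edited exon lies outside that region, so these values check neither the knockout nor the rescue. Of 25 proximal tubule genes, 21 had a promoter with a peak in at least 1 WT library, among them LRP2 and CUBN, the endocytic receptors of the brush border, and AQP1. Of all 19111 protein-coding genes, 15960 had a promoter region and 14139 had one with a peak in every library. The tubule count is thus near that of genes at large and does not check cell identity. SLC22A6, SLC22A8, SLC34A3 and FBP1 had no promoter region. Of 25 markers of other cell types, 14 had a promoter peak in at least 1 WT library, among them KDR, DES and NPHS1. The leukocyte gene PTPRC, the thick limb gene UMOD and the collecting duct gene AQP2 were among those with no promoter region.

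Most promoters did not differ between lines. A peak was present in all 15 libraries at 19749 promoters, or 56.2%, against 32.9% of other regions, and in only 2 libraries at 7.06% of promoters against 11.2%. The libraries of each line were unanimous, all with or all without a peak, at 21251 promoters, and the lines differed at 1502 of these. At the other 13860 promoters at least 1 line was split.

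In WT the 3 libraries held peaks at 79.5%, 73.6% and 73.7% of promoters, a mean of 75.6% ± 3.42 (SD, n = 3). The means were 74.5% ± 0.623 in KO1, 76.7% ± 3.34 in KO2, 77.5% ± 1.69 in Rescue1 and 79.2% ± 5.31 in Rescue2 (SD, n = 3 each). The ranges of all 5 lines overlapped except those of KO1 and Rescue1. Promoter occupancy differed by -0.0337 percentage points between KO (75.6% ± 2.46, SD, n = 6) and WT, given without a test for the reason in the next paragraph. It was 2.80 points higher in rescue than in KO (78.4% ± 3.65, SD, n = 6; two-sided exact permutation test, p = 0.141). List length moved with these values. When every list was cut to the 150000 peaks with the lowest q-values, the KO minus WT difference was -2.85 points, again without a test. The rescue minus KO difference was then 1.09 points (exact permutation test, p = 0.039). Without KO2 replicate 3 or Rescue2 replicate 3 the rescue minus KO difference was 3.79 and 3.81 points (exact permutation test, p = 0.0433 and p = 0.039).

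Other regions behaved differently. Their occupancy was 6.35 points higher in KO than in WT, and promoters made up a smaller share of all occupied regions in KO. That share was 15.4% ± 0.0679 in WT (n = 3), 14.1% ± 0.537 in KO and 14.4% ± 0.60 in rescue (SD, n = 6 each). WT did not overlap KO, with a difference of -1.28 points. Regions were kept on a peak in 2 or more of 15 libraries, 12 of them KO or rescue. No WT library had a peak at 78916 of 250400 other regions and at 5694 of 35111 promoters. These regions entered the set only through KO or rescue libraries. This lowers WT occupancy by construction, more so for other regions. All KO minus WT differences in occupancy, of promoters too, and in promoter share are therefore given without a test. In the promoter share, rescue and KO overlapped, with a difference of 0.214 points (exact permutation test, p = 0.522).

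**Figure D1:**
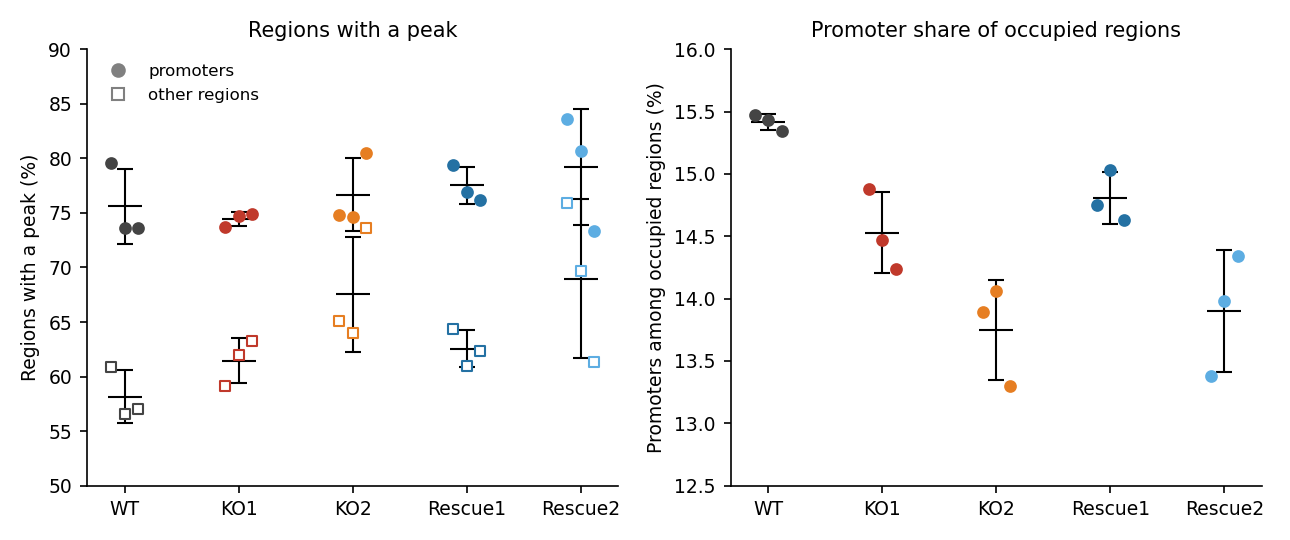
Left, the percentage of promoters (filled circles) and of other regions (open squares) with a peak in each library, by line; right, promoters as a percentage of all regions with a peak, with bars at the mean ± SD of 3 libraries and axes that do not start at 0. The WT libraries lie between 15.3% and 15.5% in the right panel, above all 12 other libraries.

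Promoters also lost WT peaks less often than other regions of the same lists. Of 23760 promoters with a peak in all 3 WT libraries, 7.38% ± 1.12 (SD over 6 KO libraries) had no peak in a KO library, against 14.1% ± 2.84 of 120525 other regions. The difference of -6.73 points ± 1.81 (SD) had the same sign in 6 of 6 KO libraries (exact sign-flip permutation test, two-sided, p = 0.0312, the smallest possible). The 5694 promoters without a WT peak had entered the set only through peaks in KO or rescue libraries, and 38.9% ± 6.16 of them had a peak in a KO library, against 44% ± 7.17 of 78916 such other regions, given without a test. The 6 libraries come from 2 clones. Since promoter peaks are higher than other peaks, the loss was also taken within 5 classes of the WT percentile that held equal numbers of regions. In the lowest class 21.3% of promoters were lost against 33.0% of other regions, and in the highest class 0.660% against 1.29%, with promoters lower in every class and in 6 of 6 libraries.

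**Figure D2:**
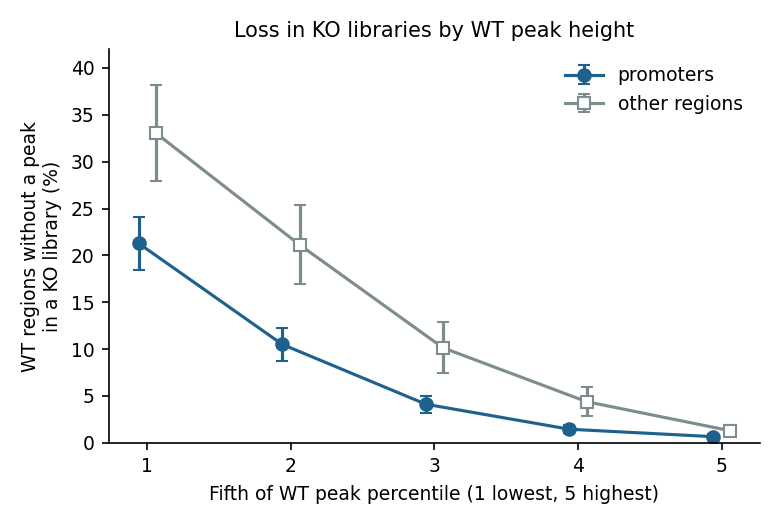
Percentage of regions occupied in each of the 3 WT libraries that lacked a peak in a KO library, by class of WT percentile (1 for the lowest to 5) of fold enrichment, for promoters and other regions, with mean ± SD over 6 KO libraries. Loss falls with WT height in both classes and is lower for promoters in each class.

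For the KO against WT, a promoter was called gained when all 6 KO libraries and no WT library had a peak, and lost when the reverse held. By this rule 699 promoters (1.99%) were gained, against a background of 4.77% of all regions, and 617 (1.76%) were lost, against a background of 2.49%. These calls carry no test per region. They also depend on how a peak is counted: of the 699 gained promoters 182 (26%), and of the 617 lost promoters 187 (30.3%), were called under 4 settings at once (the lists as deposited, a stricter q-value, lists of equal length, and a peak over at least 50% of the region). With lists of equal length 506 promoters were gained and 650 lost, and 275 and 221 of these were shared with the first count. The 8 canonical promoters described next in each direction, and CDKN2A after them, were called under all 4 settings, and for the gene lists the number so called is given with each list.

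**Figure D3:**
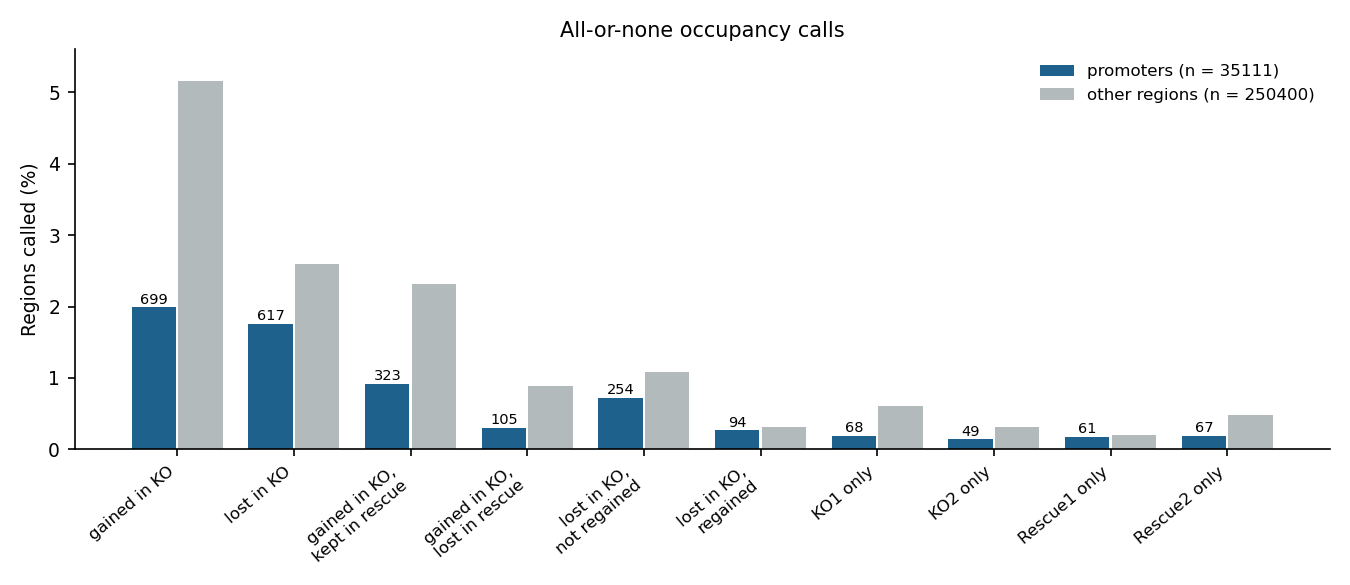
Percentage of promoters and of other regions in each all-or-none class of occupancy. Gained promoters reach 1.99% against 5.16% of other regions, lost promoters 1.76% against 2.59%, and promoters gained in KO and lost in rescue 0.299% against 0.883%.

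The gained canonical promoters with the highest KO peaks included genes of nervous tissue and blood cells. ELAVL2, which encodes a neuronal RNA-binding protein, had percentiles of 99.1, 94.0, 95.7, 97.4, 90.8 and 95.5 in the 6 KO libraries and no peak in WT. In the rescue libraries the ELAVL2 promoter kept a peak in 6 of 6. The KO peaks were thus among the highest in their lists, and the rescue peaks reached from 65.2 in Rescue1 to 95.6 in Rescue2. SLITRK6, a neuronal transmembrane protein, had a KO mean of 92.1, and NDST4, a heparan sulfate N-deacetylase/N-sulfotransferase, of 91.4. INMT, a methyltransferase of indoleamines, reached 93.3. All of these kept peaks in every rescue library, as did VWA3B (KO mean 85.8) and SLAMF7, a receptor of lymphoid cells (83.5). MS4A5 (95.2) and MS4A7 (83.6), whose product is found in macrophages, had no peak in any rescue library.

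Lost promoters included genes with high WT peaks. JAM3, a junctional adhesion molecule, had WT percentiles of 93.6, 95.4 and 95.0 at its canonical promoter and no peak in any of the 12 other libraries. STXBP2, a syntaxin-binding protein of granule exocytosis, had 88.6, 91.2 and 91.5 in WT, no peak in KO, and 86.2, 77.4 and 70.6 in Rescue1 and 87.8, 75.3 and 77.3 in Rescue2. The STXBP2 promoter thus had a peak wherever SETD2 was present, with every rescue value below the lowest WT value. ZNF135 (WT mean 89.6), KMO, a kynurenine hydroxylase (82.0), KLK6, a secreted serine protease (80.7), and PM20D1, a secreted peptidase (79.7), had no peak in any rescue library. The KMO region lay 667 bp downstream of the nearest start, and KMO had another promoter with a peak in all 15 libraries. ZNF98 (80.9) had a peak in the 3 Rescue2 libraries but in no Rescue1 library. HSH2D, an adaptor protein of lymphoid cells, had 87.6, 84.1 and 84.3 in WT, 53.0, 57.1 and 49.4 in Rescue1 and 42.1, 48.5 and 37.8 in Rescue2, so its rescue peaks were lower in their lists than its WT peaks.

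The canonical CDKN2A promoter at chr9:21974730-21975358, which serves the p16 cell cycle inhibitor, was lost in both KO clones and had no rescue peak, with a mean WT percentile of 76.8. It was chosen after its values were seen. The CDKN2A start farther upstream, at chr9:21994509-21996076, kept peaks in all libraries of WT, KO2, Rescue1 and Rescue2 and had none in KO1. In KO1 the neighbouring regions also lacked peaks: a run of 23 regions from chr9:21548997 to 21797132 and one of 13 regions from 21836383 to 21996076 had WT peaks and none in KO1. The canonical MTAP promoter between them had a peak in 1 of 3 KO1 libraries (percentile 6.97, against a WT mean of 80.2), and CDKN2B next to them had one in 1 of 3 (25.6 against 73.9). DMRTA1, farther along, had peaks in all 15 libraries. Copy number was not measured here, and its part in the KO1 values was not tested. Among the promoters of these genes, those without a peak in any KO2 library were the 3 regions at the canonical CDKN2A start.

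Counts by gene have no background, since other regions were not counted by gene. By region, the gained and lost shares of promoters (1.99% and 1.76%) were below those of all regions (4.77% and 2.49%). Of the 15960 genes with a promoter region, 96 had a promoter peak in all KO libraries and no promoter peak in any WT library. Of these, 39 had a promoter peak in all rescue libraries and 18 in none, the latter including CA9, a carbonic anhydrase of the hypoxia response, FSHR and PROK2. In the reverse direction 113 of the 15960 genes had a promoter peak in all WT libraries and in no KO library, with 24 back in all rescue libraries and 40 in none. Among the 40 were KLK6, the medium-chain acyl-CoA synthetase gene ACSM2B and MACC1. These examples were picked with their values in view.

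Gained and lost promoters were poorer in GC and CpG than promoters with a peak everywhere, as a description without a test. The median GC content of the central 200 bp was 59.5% over all promoters, 65% for those with a peak in all 15 libraries, 50.5% for gained and 53.5% for lost ones, and the median CpG observed/expected ratio was 0.538, 0.736, 0.285 and 0.300. A canonical start lay within 1000 bp of the midpoint for 56.3% of all promoters, 23.2% of gained and 40.8% of lost ones. For 81.5% of gained promoters the gene had another promoter with a peak in all libraries, against 70.3% of all promoters. Gained and lost calls were thus mostly alternative, CpG-poor starts of genes. Narrow, low peaks are also the ones nearest the threshold, and median widths were 398 bp for all promoters, 301 bp for gained and 202 bp for lost ones; the part of peak height in these sequence differences was not tested. Of lost promoters 13.8% (85) lay on chromosome 19, against 6.51% of all promoters and 3.29% of gained ones.

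Short motifs were searched on both strands of the central 200 bp. The AP-1 letters TGANTCA were in 12.4% of all promoters, 24.2% of gained, 12.6% of lost and 25.5% of promoters lost in KO and regained in rescue, but in 12.4% of those gained in KO that lost their rescue peaks. FOX letters TGTTTAC were in 2.06% of all, 5.15% of gained and 2.11% of lost promoters, and RUNX letters TGTGGTT in 3.95%, 8.73% and 5.19%. The C/EBP letters TTGCNNAA were in 6.24%, 9.59% and 6.81%, and the TEAD letters ACATTCC in 2.75%, 4.01% and 6.16%. Motifs of GC-rich housekeeping promoters ran the other way: the SP/KLF letters GGGGCGGGG were in 8.25% of all, 1.57% of gained and 4.21% of lost promoters, and the ETS letters CCGGAAG in 4.76%, 1.14% and 3.4%. TATA boxes (TATAAA) were in 4.67%, 7.30% and 6.0%, and E-boxes (CACGTG) in 4.25%, 3.43% and 4.54%. A match is a run of letters and says nothing of binding, and GC content moves with these shares.

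Long runs of gained neighbours held a smaller share of the gained promoters than of the other gained regions, as a description without a test. A run was defined as at least 5 neighbouring regions, all gained, counted among regions that every library of the holding group occupied. Such runs contained 41 of 699 gained promoters (5.87%) and 2664 of 12927 other gained regions (20.6%). For losses the shares were 2.27% (14 of 617) and 2.96%. The run with MS4A14, MS4A5 and MS4A7 had 5 regions over chr11:60370787-60499079, and those with SLITRK6 and NDST4 had 19 and 20. Among losses, a run of 10 regions over chr11:134045833-134207740 held 3 promoters of JAM3, and 7 regions over chr19:50929910-51097625 held promoters of KLK6 and KLK10. Of 9 kallikrein promoters, a family of secreted serine proteases encoded together on chromosome 19, 6 (66.7%) were lost and none was gained. Of 811 promoters of zinc finger genes, 18 (2.22%) were lost and 8 (0.986%) gained, near the 1.76% and 1.99% of all promoters. These families were picked with their values in view.

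The comparison of rescue with KO asks which promoters followed SETD2 when it was returned. Between KO and rescue 238 promoters (0.678%, background 0.906%) were gained, with a peak in all 6 rescue and no KO library, and 181 (0.516%, background 1.23%) were lost. Of the promoters gained in KO, 105 (0.299% of all promoters, background 0.812%) had no peak in any rescue library, and 323 (0.920%, background 2.14%) had one in all 6. Of those lost in KO, 94 (0.268%, background 0.312%) had a peak in all 6 rescue libraries, and 254 (0.723%, background 1.04%) in none. Called under all 4 settings were 22 of the 105 and 9 of the 94, so few of these reversals hold for every way of counting a peak.

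MS4A5 led the promoters gained in KO and lost in rescue, with KO1 percentiles of 97.0, 89.1 and 91.7 and KO2 percentiles of 97.3, 96.5 and 99.5. Both MS4A7 promoters followed, the alternative one with a KO mean of 88.7. PLD5, a phospholipase D family member, had 81.1 at an alternative start, and FREM3, an extracellular matrix protein, 69.6. LRRC4C, a synaptic adhesion protein (77.4 at an alternative start), was not called under all 4 settings. Of 8 MS4A promoters, 3 were gained in KO and all 3 were lost in rescue. The promoters regained in rescue were led by an alternative JAM3 start (WT mean 91.4), which had peaks in all 6 rescue libraries while the canonical JAM3 promoter had none. STXBP2 came next, then an alternative start of EIPR1 (85.9), HSH2D and an alternative start of A1BG (81.9). The JAM3 start, HSH2D and XRCC2, a DNA repair protein (70.8), were not called as regained under all 4 settings. Chromosome 19 held 21.3% (20) of regained promoters and 0.952% of those gained in KO that lost their rescue peaks.

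**Figure D4:**
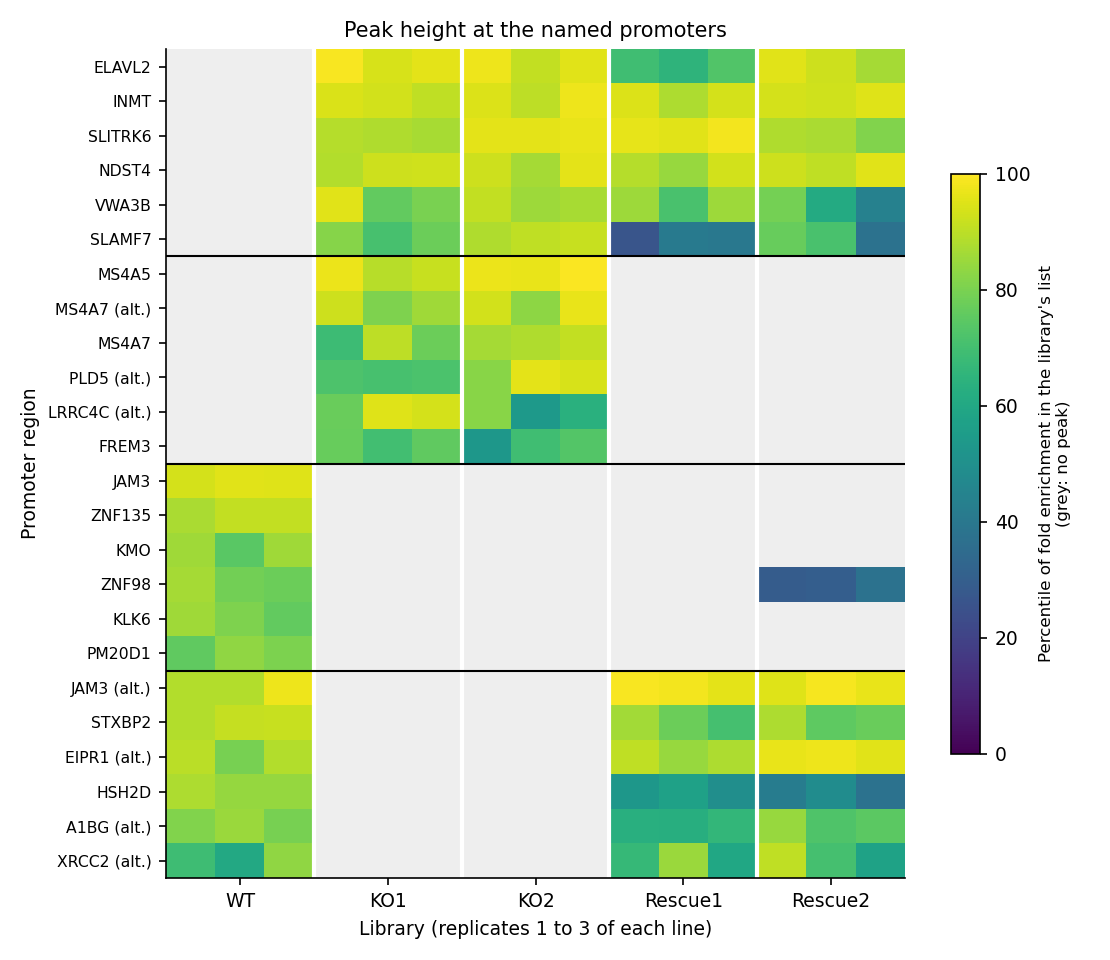
Percentile of fold enrichment within its list, in each of the 15 libraries, for the promoters named as gained, lost, reversed or regained, with grey for no peak and "(alt.)" for a start other than the canonical one. MS4A5 and both MS4A7 promoters are grey outside the KO columns, and STXBP2 is grey only in the KO columns.

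Because rescue calls share KO libraries with KO calls, the return was also measured on libraries that had no part in choosing the promoters. Promoters were chosen from KO1 and WT alone, and KO2 was then compared with the rescue clones. Of 1086 promoters gained in KO1, the KO2 libraries had a peak at 74.6%, 74.4% and 85.2%. Rescue1 had one at 54.5%, 49.1% and 50.1%, and Rescue2 at 58.8%, 53.6% and 43.8%. Every KO2 library lay above every rescue library, with means of 78.1% ± 6.17 (SD, n = 3) and 51.7% ± 5.17 (SD, n = 6). The difference of -26.4 points had p = 0.0238, the smallest the two-sided exact permutation test can give here. Of 1182 promoters lost in KO1, KO2 had a peak at 27.9%, 27% and 38.6%, Rescue1 at 49.5%, 45.5% and 45.3%, and Rescue2 at 62.7%, 55.3% and 45.8%. Again the groups did not overlap, with a difference of 19.5 points (means 31.2% ± 6.44 and 50.7% ± 7.03; exact permutation test, p = 0.0238). Other regions moved alike, from 79.4% to 52.3% at gains and from 30.6% to 48.3% at losses, so this return was not tested as particular to promoters.

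**Figure D5:**
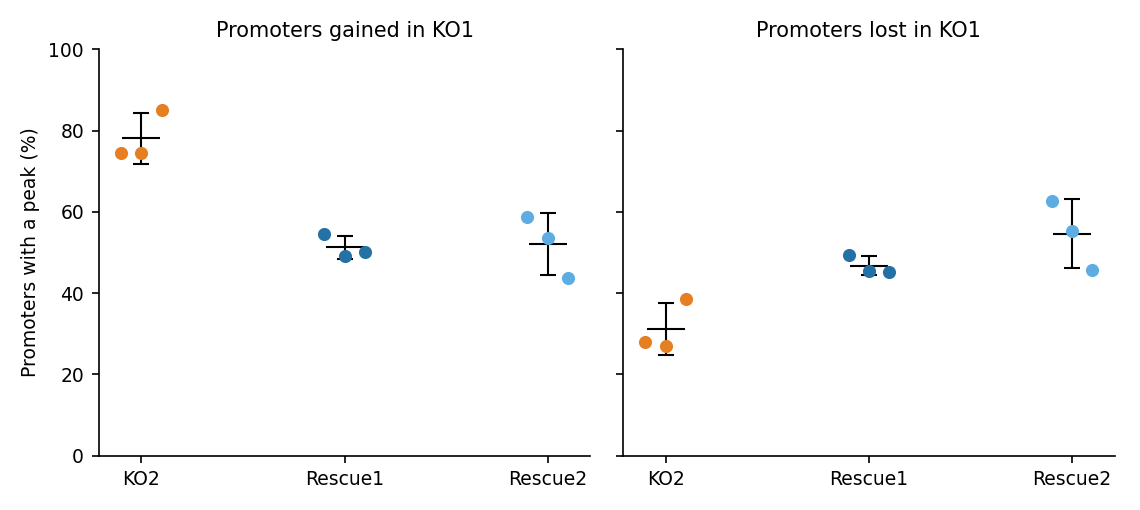
Percentage of promoters with a peak in each KO2, Rescue1 and Rescue2 library, for the 1086 promoters gained in KO1 (left) and the 1182 lost in KO1 (right), with bars at the mean ± SD of 3 libraries. KO2 lies above both rescue clones on the left and below them on the right.

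Clone-specific promoters had a peak in all 3 libraries of 1 line and in none of the other 12. There were 68 in KO1 (0.194%, background 0.557%), 49 in KO2 (0.140%, background 0.289%), 61 in Rescue1 (0.174%, background 0.199%) and 67 in Rescue2 (0.191%, background 0.446%). Under all 4 settings 21, 1, 2 and 4 were called. Leaving out 1 library relaxes this all-or-none rule, so by construction the counts could only stay or rise. They reached at most 138 (without KO1 replicate 1), 123 (without KO2 replicate 2), 116 (without Rescue1 replicate 2) and 228 (without Rescue2 replicate 3). The KO1 promoters included ROBO2, a receptor of axon guidance (mean percentile 90.2), and the amino acid transporter gene SLC7A8 (67.8), both at alternative starts. In the other lines only CDH12 in KO2 (62.0), NEBL (55.8) and MALRD1 (47.3) in Rescue1, and CSMD2 (71.7), VSTM4 (61.8) and ADAT1 (55.4) in Rescue2 were named and also called under all 4 settings. A further 62 promoters (background 0.319%) had peaks in all libraries of KO2 and both rescue clones and in no other, and 60 (background 0.345%) in the rescue clones alone. Only KO1 lacked a peak at 125 promoters (0.356%, background 0.428%), of which 27 lay on chromosome 19 and 12 belonged to zinc finger genes. A clone taken alone must give at least as many calls as both together, since fewer libraries have to agree. Among 35111 promoters 1086 were gained and 1182 lost in KO1, against 18978 and 12529 of 250400 other regions. In KO2 1323 promoters were gained and 887 lost, against 22357 and 8334 other regions.

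The 19749 promoters with a peak in all 15 libraries were compared by rank. The fold enrichment of each of the 102091 regions with a peak in every library was turned into a percentile rank within its library, and the ranks were fitted with limma across all of these regions. A promoter was called at a Benjamini-Hochberg adjusted p under 0.05 and a change of at least 10 points. Fold enrichment is relative to the background of its own list, so a rank gives the order of regions in a library and not their accessibility. In KO against WT 1027 promoters (5.2%, background 11.6%) rose and 1584 (8.02%, background 11.6%) fell. In rescue against KO 1049 (5.31%, background 10.6%) rose and 2122 (10.7%, background 10.6%) fell. Without WT replicate 2 or 3, the falls in KO numbered 1045 and 1028. The rise and the fall in KO were followed by the opposite change in rescue at 317 and 448 of the 19749 promoters. The same count over all 102091 regions was not made, so these numbers have no background. Both comparisons use the same KO libraries with opposite sign, so some opposite changes can come from the spread of those libraries.

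ZNF418, a zinc finger gene on chromosome 19, fell furthest: its mean rank was 98.3 in WT, 5.11 in KO1, 10.6 in KO2, 87.8 in Rescue1 and 92.2 in Rescue2. The change was -90.4 points (SE 3.96, limma adjusted p = 2.7e-08) in KO and 82.1 (SE 3.23, adjusted p = 7.2e-08) in rescue, with both KO clones low and both rescue clones high. NUP58, a nuclear pore protein, had -86.5 and then 50.8 at an alternative start, and CEP164, a centriole protein, -81.4 and 38.8 and ANXA6, an annexin, -76.6 and 17.9, both at alternative starts. LCK, a tyrosine kinase of T cells, was at 93.6 in WT, 9.80 in KO1, 34.5 in KO2, 94.9 in Rescue1 and 86.9 in Rescue2 at an alternative start. All of these changes passed the test in both comparisons.

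Of the 5 promoters that rose furthest in KO, 4 showed no rescue change past the threshold. FAM162A, a hypoxia-responsive mitochondrial protein, had ranks of 6.01 in WT, 88.1 in KO1, 91.1 in KO2, 95.1 in Rescue1 and 96.5 in Rescue2 at an alternative start (83.6 points, SE 2.95, limma adjusted p = 4.8e-09). CCPG1 had a change of 77.0, KNTC1, a kinetochore protein, of 76.9 and ARID3A of 75.2 at alternative starts, with rescue changes between 0.417 and 2.24 that did not pass. QPCT, a glutaminyl cyclase, rose by 75.4 and fell by 21.6 in rescue (limma adjusted p = 0.0068). OR8D1, an olfactory receptor gene, rose by 73.6 and fell by 69.9. AGBL4, at -74.1 in rescue, PI3, the elastase inhibitor elafin, at -70.8 and ZNF175 at -56.1 fell in rescue, and their KO changes did not pass. CLEC18B (61.7), PTPRF, a receptor tyrosine phosphatase (61.8), and B3GNT8, a glycosyltransferase (62.7), rose in rescue, and of these only B3GNT8 passed in KO, where it fell by 47.0.

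Promoters that fell in rescue were richer in GC than those that rose, but only slightly richer than all promoters tested. Their share of 10.7% was near the 10.6% of all regions. The 2122 promoters that fell had a median GC content of 68.5%, a median CpG ratio of 0.814 and the canonical start in 76.4%. These values were 55.5%, 0.290 and 38.3% for the 1049 that rose, and 65%, 0.736 and 68.2% for all 19749 tested. Averaged over the promoters above the median GC content, the rescue minus KO difference in rank was -4.05 points (44.5 ± 1.89 and 48.6 ± 2.87, SD, n = 6 each). Over the remaining promoters it was -0.0194 points. The split follows the falls in these same ranks, so it is given without a test. In the GC-rich promoters KO1 libraries had means of 51.5, 51.9 and 48.5, KO2 libraries 47.1, 48.4 and 44.2, and rescue libraries 41.8 to 46.4. List length moves with mean rank, as Rescue2 replicate 1 had the longest list and the lowest mean promoter rank (43.2), and its part was not tested. Against KO2 alone, 627 promoters rose and 681 fell in rescue, and against KO1 alone 988 and 2845, so the excess of falls was larger against KO1.

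The calls were then counted in 11 gene lists. A median change in rank of -0.61 points over all 102091 regions and of -0.67 over the 19749 promoters, for KO minus WT, is the level to read them against. Over all promoters, 1.99% were gained and 1.76% lost, and 5.2% of those tested rose and 8.02% fell in rank.

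Among 103 promoters of epithelial genes, 8 (7.77%) were lost in KO and 1 (0.971%) was gained, of which 2 losses (KRT7 and LLGL2) and the gain were called under all 4 settings. KRT7, a keratin of simple epithelia, lost both regions beside its canonical start (WT means 57.0 and 28.7, only the first under all 4 settings) and had no rescue peak at either. ESRP2, an epithelial splicing regulator, lost 2 regions with WT means of 4.08 and 4.18, low in their lists, and LLGL2, a polarity protein, lost one at 49.7. Of 48 epithelial promoters tested by rank 7 rose and 3 fell, with a median change of 0.28. CLDN4, a tight junction claudin, rose by 48.8 at an alternative start (ranks 14.9 in WT, 70.3 in KO1, 57.0 in KO2; limma adjusted p = 3.2e-05), the shared KRT8 and KRT18 region by 26.8 and the tight junction gene CGN by 22.6. An alternative start of CDH1, E-cadherin, fell by 31 (ranks 68.0, 47.9 and 26) and the canonical KRT19 promoter by 11.3. The list therefore held losses of called peaks beside rises in rank.

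Among 152 promoters of mesenchymal and EMT genes, 4 (2.63%) were gained in KO and none was lost, and only ACTA2 and COL5A1 were called under all 4 settings. The gains were ACTA2, smooth muscle actin (percentiles 77.9 in KO1, 81.7 in KO2, 93.5 in Rescue1 and 88.2 in Rescue2), the collagen genes COL6A3 (81.7, 75.5, 91.9 and 90.04) and COL5A1 (47.6, 37.1, 23.1 and 34.6), and CDH11, OB-cadherin (36.1, 37.3, 32 and 28.5). All 4 kept a peak in every rescue library. The ACTA2 region lay 933 bp downstream of the nearest start, and ACTA2 had another promoter with a peak in all 15 libraries. Of 73 tested by rank 7 rose and 11 fell, with a median change of -2.75. An alternative start of MMP2, a gelatinase, fell by 48.7 and the VIM promoter by 12.6, while one start of TCF4 rose by 50.5 and another fell by 16.2.

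Among 63 promoters of kidney identity factors, 5 (7.94%) were gained, 3 of them at EYA1, and 1 (1.59%) was lost. Of these, 1 EYA1 start and WT1 were called under all 4 settings. By rank 1 of 26 rose and 2 fell. In the KO and rescue lines a WT1 alternative start had percentiles of 73.2 in KO1, 87.1 in KO2, 77.1 in Rescue1 and 73.9 in Rescue2. GATA3 fell by 33.1 at an alternative start and rose by 45.1 in rescue. Of 41 proximal tubule promoters 2 were lost, at GGT1 (WT mean 17.3) and MIOX (4.03), neither of them called under all 4 settings, and none was gained. SLC5A2, the glucose transporter SGLT2, fell by 21.9 at an alternative start and CDH16, kidney cadherin, rose by 18.1. Of 38 promoters of other cell type markers 3 were lost and none gained, at DES and NPHS1, with 1 of the NPHS1 regions called under all 4 settings, and KDR, a VEGF receptor of endothelium, rose by 47.7.

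Of 147 promoters of cytoplasmic ribosomal protein genes, 3 (2.04%) were gained in KO and none was lost, and none of the gains was called under all 4 settings. By rank 14 of 91 fell, none rose and the others did not pass, with a median change of -6.52, while all 73 genes kept a promoter with a peak in all 15 libraries. RPL17 had ranks of 53.9 in WT, 26.8 in KO1 and 18.3 in KO2 (-31.3 points, SE 4.63, limma adjusted p = 0.00039). RPL27A (-30.3), RPL13 (-29.1) and RPS2 (-29.1) followed. In rescue 2 of the 91 rose and 6 fell, with a median change of -1.93 against -2.22 for all promoters.

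Of 89 interferon response promoters 3 (3.37%) were gained in KO and none lost, and RIGI and ISG20, but not MX2, were called under all 4 settings. RIGI, the cytoplasmic RNA sensor, had percentiles of 72.5 in KO1, 80.1 in KO2, 85.1 in Rescue1 and 76.9 in Rescue2 at an alternative start, and MX2, an antiviral GTPase, 38, 44.2, 40.1 and 62.7. By rank 4 of 58 rose, with SAMD9 at 59.9 and BST2 at 39.4, and 6 fell, including HLA-E by 18.7, which rose by 21.4 in rescue. Of 140 promoters of cytokines and growth factors 2 were gained (PDGFA and ANGPTL4) and 3 lost (INHBA, BMP4 and CCL2, all with WT means below 9), of which only BMP4 was called under all 4 settings, and by rank 7 rose and 4 fell of 71. CXCL12 fell by 51.2 at an alternative start and rose by 46.7 in rescue, and an INHBA start rose by 26.4 and fell by 43.2. Of 106 WNT promoters 2 were gained and 2 lost, and only the gain at RSPO2 was called under all 4 settings. RYK, a WNT receptor, was gained at an alternative start and had no rescue peak (percentiles 36 in KO1 and 21.4 in KO2), and the region shared by starts of WNT3 and WNT9B rose by 46.4. Of 102 HOX promoters none was gained and 1 was lost, at HOXD3, not under all 4 settings. Of 61 promoters on the list headed H3K36 methylation 1 was gained and 2 were lost, and only the loss at SETD3 was called under all 4 settings. A place on this list does not show that a gene's product methylates H3K36. An alternative start of NSD2, an H3K36 methyltransferase, had WT percentiles averaging 49.9, no KO peak, and 77.0 in Rescue1 and 65.1 in Rescue2, whereas SETD3 had 83.8 in WT and peaks in 1 Rescue1 and 2 Rescue2 libraries.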

How the data were processed

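ATAC-seq was performed by the authors on 15 libraries in 5 groups of 3. Per the labels' processing notes, reads were aligned with BWA 0.7.17 to hg38 (the study's methods give another BWA version) and MACS2 2.2.7.1 was run on each library by itself. The deposited lists give each peak's interval, a score (10 times the −log10 q), the summit's offset, the −log10 p and −log10 q, and a ratio, the fold enrichment over background in that library. The lowest −log10 q was 1.30 or 1.31 in each list. Filtering of duplicate reads and the control used were not given in the sources used here.

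All 99 contig names of the lists were found in the reference, and no peak passed a contig's end. Peaks of chromosomes 1 to 22 were merged with Python 3.11.15 and pandas 2.3.3, and a region counted as occupied when 1 bp or more lay under a peak. Where a region held several peaks of a library, the highest fold enrichment was taken. Single values per library were compared by exact permutation tests over libraries, two-sided by doubling the smaller tail, and ranks by limma 3.58.1 in R 4.3.3. Statistics were tested on simulated data. Promoters were named from the nearest start. Named were the 8 gained and 8 lost canonical promoters with the highest mean percentile in the group holding the peak, 6 for each reversal, 4 for each clone and 5 for each direction of rank. Some items that this rule names are not reported here. The members, lists and rules were chosen with earlier results of these data known. DiffBind 2.14.0, used in the study on reads, was not used here. Labels give replicate numbers without saying whether libraries came from separate cultures, so p-values measure the spread between these libraries, which may be technical. Alternatives were a stricter threshold, lists of equal length, 50% coverage, narrower promoters, a majority rule, each KO clone alone, a replicate block and leaving out each library; a call under 4 settings at once was added after the data had been examined.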

Additional observations from a re-analysis of the deposited data

Results flagged for a closer look

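In 8 sets of libraries examined, 2 values lay apart from the rest of their set, with a gap to the nearest library that, divided by the range of the set, passed Dixon's 95% critical value. Chance alone marks about 1 in 20 such sets. Among the 6 KO libraries, KO2 replicate 3 had a peak at 80.5% of promoters, above the others. Also among the KO libraries, KO1 replicate 2 had the highest median percentile of promoter peaks, 63.4.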

How the results depend on the processing

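Changes across settings follow from construction where regions, libraries or agreement among libraries were redefined; for lists of equal length and a stricter threshold the cause was not tested. With lists of equal length, occupancy differences were -2.85 points (KO minus WT, given without a test) and 1.09 points (rescue minus KO, p = 0.039, exact permutation test). Promoters private to KO2 and Rescue2 then numbered 26 and 32. A stricter threshold left 43 private to Rescue2. With 50% of a region covered, 160 gained in KO lost their rescue peaks, and 121 and 103 private to KO1 and Rescue2. Within 500 bp of a start, 412 were gained and 402 lost in KO, 128 gained in rescue, 60 regained, and 38 and 34 private to Rescue1 and Rescue2. With the gene's own start only, 175 were gained and 234 lost in KO, 78 gained and 54 lost in rescue, 27 reversed, 28 regained, and 25, 13, 19 and 16 private to KO1, KO2, Rescue1 and Rescue2. A majority rule gave 2279, 2667, 2015, 1276, 807, 875, 1440, 1514, 1707 and 2102 in the same order. KO1 alone gave 1086, 1182, 718, 465, 297 and 330 for the first 6. With KO2 alone the occupancy difference from WT changed sign to 1.07 points, 1323 promoters were gained in KO, 371 lost in rescue and 235 reversed, and by rank 627 rose and 681 fell in rescue. All 4 peak settings at once gave 182, 187, 25, 33, 22, 9, 21, 1, 2 and 4.

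Leaving out 1 library at a time gave occupancy differences from -1.04 to 1.94 (KO minus WT; above 0 without WT replicate 1, 1.94, and without each KO library but KO2 replicate 3) and from 1.75 to 3.81 (rescue minus KO; p = 0.0433 without KO2 replicate 3 and p = 0.039 without Rescue2 replicate 3, exact permutation tests). Ranges were 699 to 899 gained and 617 to 893 lost in KO, 238 to 324 gained and 181 to 240 lost in rescue, 107 to 134 reversed and 96 to 133 regained. Private promoters ranged from 68 to 138 in KO1, 50 to 123 in KO2, 62 to 116 in Rescue1 and 67 to 228 in Rescue2, the last without Rescue2 replicate 3. Occupancy of promoters gained or lost in KO1 differed between rescue and KO2 by -28.2 to -22.8 and 17.1 to 23.2 points, where 2 KO2 libraries allow no exact permutation p below 0.0714. Promoter minus other loss and gain shares ranged from -7.5 to -6.25 and from -6.31 to -4.85 points, where, for the loss share, 5 KO libraries allow no exact sign-flip p below 0.0625; the gain share is given without a test. By rank 732 to 1041 rose and 1028 to 1604 fell in KO (1045 without WT replicate 2, 1028 without WT replicate 3), and 913 to 1041 rose and 1692 to 2331 fell in rescue.

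Replicate numbers did not pair the libraries: of 30 same-numbered pairs 1 correlated above 0.1 (range -0.129 to 0.102). With the replicate number as a block, occupancy differences were -0.0337 (KO minus WT, given without a test) and 2.80 (rescue minus KO, p = 0.176, permutation within numbers). By rank 1006 rose and 1535 fell in KO, and 1013 and 2038 in rescue.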

Other observations

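Runs of neighbouring lost or gained regions differed between the clones. In KO1, 64 runs of at least 5 neighbouring regions were lost, the longest of 23 regions, and in KO2 31 runs, the longest of 36. Gained runs numbered 453 in KO1 and 483 in KO2, and they held 8.56% and 6.42% of the gained promoters against 23.8% and 19.9% of the other gained regions. In KO1 the lost kallikrein run took in 21 regions over chr19:50818211-51097625, with promoters of KLK1, KLK2, KLK4, KLK6 and KLK10, and KLK2 had a peak again in every library of both rescue clones.

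Promoters of olfactory receptor genes, which are transcribed in sensory neurons, held 4 gains (9.3%) and 2 losses (4.65%) among 43 regions, and 2 of the 4 gains had no rescue peak in any library. Glutamate receptor genes held 4 gains (6.67%) and 1 loss (1.67%) among 60, solute carriers 6 gains (0.87%) and 16 losses (2.32%) among 690, and UGT genes 2 losses (14.3%) among 14. Over all promoters 1.99% were gained and 1.76% lost. These families were chosen after their values were seen and carry no test.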
